A study of Mus musculus with 6 samples.

Results

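Transcripts of 38 genes of glycolysis and of the response to low oxygen were followed in cultures of mouse spermatogonial stem cells, from which sperm production in the adult testis is renewed. The genes were chosen by name from a list of glycolytic enzymes, glucose and lactate transporters and targets of the hypoxia-inducible factors. All 38 were among the 41053 gene names of the count files, and 37 passed the filter on low counts, as did 15263 genes in all. Car9 did not pass it. Each of the 6 libraries came from 1 cell line made from adult cells. The 3 lines labelled Ephb2-KO had received a GFP reporter plasmid with a guide RNA against Ephb2, and the 3 wild-type (WT) lines the same kind of plasmid without that guide. Lines of both groups were sorted for GFP, subcloned and sequenced, and the labels give no mouse strain. In either group, the lines numbered 1 and 2 had reached passage 20 and the line numbered 3 passage 18, so passage 18 cannot be told apart from replicate number 3. The study asked what the loss of Ephb2, a receptor tyrosine kinase, does to the transcripts of these cells. Where 3 values are given in a row below, they are replicates 1, 2 and 3.

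Glycolysis splits glucose into pyruvate, which lactate dehydrogenase can turn into lactate for export from the cell. When oxygen is low, the prolyl hydroxylases stop marking the alpha subunits of the hypoxia-inducible factors (HIF) for breakdown, and HIF then binds short DNA motifs near its target genes. Its targets include most glycolytic enzymes, the main glucose transporter, angiogenic peptides, proteins that hold pyruvate back from mitochondria or mark mitochondria for removal, and the prolyl hydroxylases themselves. Spermatogonial stem cells in culture are known to rely on glycolysis.

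Total counts ran from 21772404 to 34047758 per library, and 3 counts in 1 library corresponded to between 0.0803 and 0.147 CPM (counts per 1000000 counts, after scaling of library sizes). Floors cover counting error only. Ephb2 mRNA was not lower in the lines labelled Ephb2-KO, at 37.1, 16.5 and 13.4 CPM against 21.3, 27.1 and 10.8 CPM in WT lines, so the genotype is named by its label throughout. A gene count over all exons does not show a small insertion or deletion. All 9 germ cell and spermatogonia markers were present, with Dazl at 1351, 1287 and 696 CPM in lines labelled Ephb2-KO and 1111, 1382 and 826 CPM in WT lines. The libraries also held transcripts of stromal cells: 12 fibroblast markers made up 0.509%, 0.506% and 1.86% of counts in lines labelled Ephb2-KO and 0.330%, 0.406% and 1.64% in WT lines. Of 6 Sertoli cell markers Amh was at or near 0, whereas Sox9 stood between 16.5 and 41.8 CPM, Wt1 between 16.1 and 37.3 CPM, Gata4 between 9.08 and 19.3 CPM and Amhr2 between 3.21 and 4.31 CPM over the 6 libraries, and Clu reached 1.57 CPM. Of 4 macrophage markers Ptprc and Emr1 were at or near 0, whereas Cd68 stood between 5.26 and 20.1 CPM and Csf1r reached 1.13 CPM. Summed counts of 13 mitochondrially encoded genes were higher in the line labelled Ephb2-KO of each same-numbered pair, by log2 values of 0.89, 0.45 and 0.31, with 4 of the 13 at 0 in every library. Their part in the results below was not tested. In bulk RNA, fewer cells of a type and less RNA per cell cannot be told apart.

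Promoter sequences are shown for 6 members whose levels set the lines of one passage or replicate number apart in the results below, so that the letters of the HIF motif can be seen. These 6 were chosen after their values were seen. Capitals mark ACGTG and GCGTG, the core letters of the hypoxia response element, on either strand, so that CACGT and CACGC are the same motifs read from the other strand and CACGTG counts as 2 overlapping matches. Each window, from RefSeq on GRCm38.p6, runs 5′ to 3′ from 250 bases before the start site to 50 after it. They lie at chrX:106186850-106187149 on the plus strand (Pgk1), chr7:110627407-110627706 on the plus strand (Adm), chr7:138909457-138909756 on the minus strand (Bnip3), chr7:46845554-46845853 on the plus strand (Ldha), chr4:119108495-119108794 on the plus strand (Slc2a1) and chr12:54203825-54204124 on the minus strand (Egln3).
Pgk1: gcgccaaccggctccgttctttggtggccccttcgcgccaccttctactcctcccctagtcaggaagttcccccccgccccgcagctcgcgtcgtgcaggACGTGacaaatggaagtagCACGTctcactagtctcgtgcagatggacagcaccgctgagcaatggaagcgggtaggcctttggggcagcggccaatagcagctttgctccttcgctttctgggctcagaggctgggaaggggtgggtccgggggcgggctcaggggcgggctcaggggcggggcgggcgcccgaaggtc
Adm: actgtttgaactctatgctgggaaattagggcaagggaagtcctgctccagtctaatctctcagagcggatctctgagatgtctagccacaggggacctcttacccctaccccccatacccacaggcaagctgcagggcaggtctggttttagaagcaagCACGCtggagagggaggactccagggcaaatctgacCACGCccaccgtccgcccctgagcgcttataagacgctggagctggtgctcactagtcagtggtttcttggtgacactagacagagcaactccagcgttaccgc
Bnip3: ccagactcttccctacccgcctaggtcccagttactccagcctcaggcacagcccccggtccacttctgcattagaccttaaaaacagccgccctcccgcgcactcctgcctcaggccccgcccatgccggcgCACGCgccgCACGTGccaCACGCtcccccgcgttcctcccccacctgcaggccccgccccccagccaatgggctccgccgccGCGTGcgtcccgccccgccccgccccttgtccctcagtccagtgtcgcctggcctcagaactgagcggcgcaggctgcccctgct
Ldha: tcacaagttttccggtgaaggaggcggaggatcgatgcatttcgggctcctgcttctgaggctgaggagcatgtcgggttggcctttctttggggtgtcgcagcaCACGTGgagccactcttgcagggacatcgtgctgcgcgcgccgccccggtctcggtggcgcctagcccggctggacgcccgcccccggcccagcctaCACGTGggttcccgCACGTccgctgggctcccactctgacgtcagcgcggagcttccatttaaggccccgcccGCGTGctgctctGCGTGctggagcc
Slc2a1: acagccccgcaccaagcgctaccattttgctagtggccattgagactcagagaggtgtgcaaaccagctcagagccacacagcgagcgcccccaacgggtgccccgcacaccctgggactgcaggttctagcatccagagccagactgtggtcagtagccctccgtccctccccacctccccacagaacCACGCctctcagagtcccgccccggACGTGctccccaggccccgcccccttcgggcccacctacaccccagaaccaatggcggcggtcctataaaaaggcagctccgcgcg
Egln3: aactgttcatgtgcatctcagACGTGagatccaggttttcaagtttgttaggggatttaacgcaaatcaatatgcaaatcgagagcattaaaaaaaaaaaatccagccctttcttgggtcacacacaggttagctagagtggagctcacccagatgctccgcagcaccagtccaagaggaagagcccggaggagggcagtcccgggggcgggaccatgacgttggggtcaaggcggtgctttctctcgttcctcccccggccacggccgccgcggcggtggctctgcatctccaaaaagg
The promoter of Pgk1 held 2 matches, that of Adm 2, that of Bnip3 5, that of this Ldha start site 7, that of Slc2a1 2 and that of Egln3 1. Of 34 members with a window in the table (Ero1l under its RefSeq name Ero1a), 31 held at least 1 match in at least 1 window, a share of 91.2%. Among the 10944 tested genes with a window 66.7% did, and among all 27025 genes with one 46.7% did. Gpi1, Tpi1 and Eno2 had a window and held no match. Slc2a3, Bnip3l, Bhlhe40 and Ndrg1 had no window, so the motifs were not searched in them. Of the members called higher at passage 18 below, 5 of 6 with a window held a match, all but Eno2, and of those called lower 3 of 3 did. A match is a run of letters and not a binding site.

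Measured per length of exon, as CPM per kb, the most abundant member was Pkm, whose pyruvate kinase makes the pyruvate of the pathway. Its level averaged 533 CPM per kb over the 6 libraries, at 419, 687 and 573 in lines labelled Ephb2-KO and 382, 655 and 482 in WT lines. The next levels were those of Aldoa (aldolase), Ldha (lactate dehydrogenase), Gpi1 (glucose phosphate isomerase) and Gapdh, with means of 159.7, 150.2, 134 and 128 CPM per kb. The libraries of these 4 genes overlapped one another, so their order is not set. The Slc2a1 glucose transporter averaged 88.3 CPM per kb and Slc2a3, its higher-affinity relative, 33.9. Among the hypoxia targets outside glycolysis, the mitophagy receptor gene Bnip3l was the highest at 54.9, followed by the histone demethylase gene Kdm3a at 43.2 and the collagen prolyl hydroxylase gene P4ha1 at 42.5. The lowest members that passed the filter were Pfkfb3 and Pfkfb4, whose bifunctional enzymes set the level of the phosphofructokinase activator fructose 2,6-bisphosphate, at 1.59 and 2.21 CPM per kb. Car9, a carbonic anhydrase that is among the most strictly hypoxia-dependent HIF targets, had 1, 9 and 4 counts in lines labelled Ephb2-KO and 1, 0 and 2 counts in WT lines. Reads that map to several places were not counted, so genes with near-identical processed copies, of which Gapdh is the best known, may be undercounted.

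**Figure D1:**
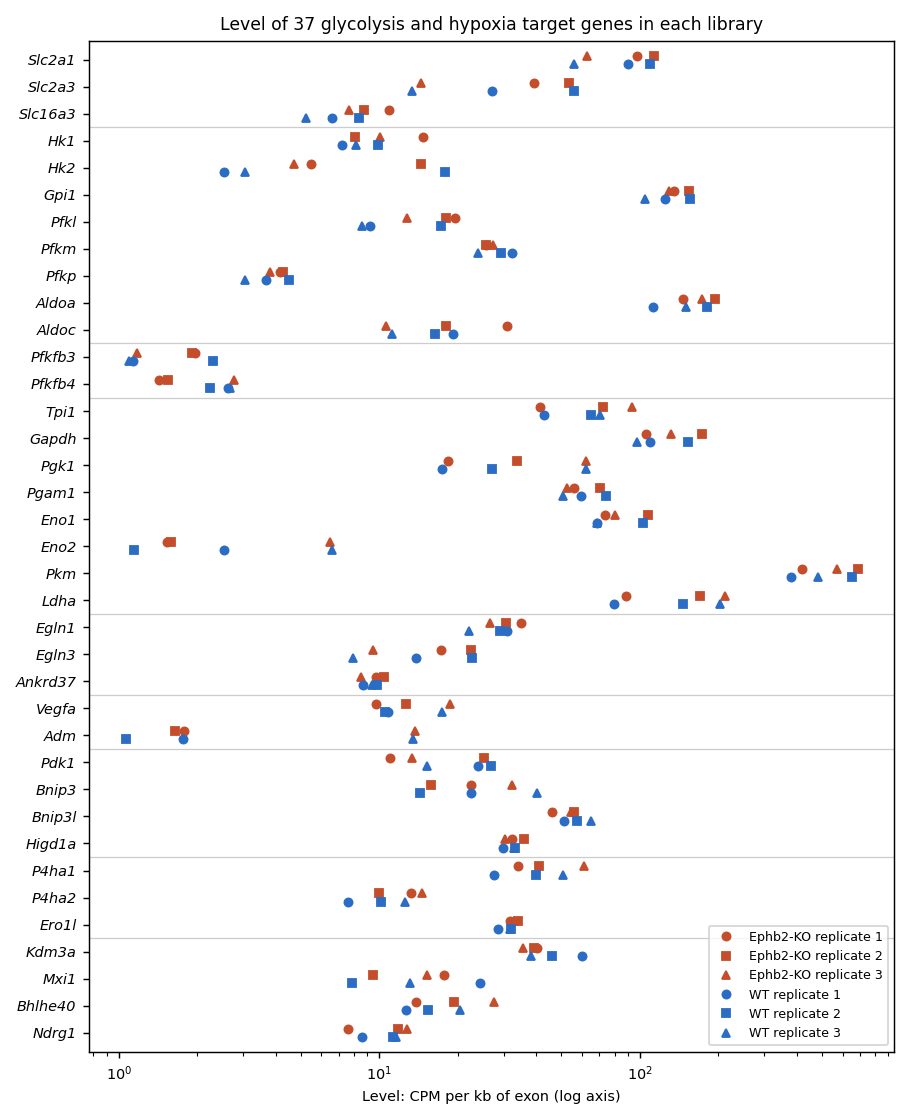
Level of 37 members in each library, as CPM per kb of exon on a log axis, ordered by role (transport, upper glycolysis, fructose 2,6-bisphosphate control, lower glycolysis, HIF feedback, secreted factors, mitochondria, collagen and ER, transcription and stress). Orange marks are lines labelled Ephb2-KO, blue marks WT lines, and the shape is the replicate number; Pkm is the highest at a mean of 533, and for Hk2, Adm and Eno2 the marks part by shape rather than by colour.

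No member passed the test between lines labelled Ephb2-KO and WT lines, and most members lay slightly higher in the lines labelled Ephb2-KO. In the edgeR quasi-likelihood test across all genes 0 of 37 members had a Benjamini-Hochberg adjusted p under 0.05, where 0% of all tested genes did. At an unadjusted p under 0.05 there were 0 members and 0.21% of all genes (32 genes). DESeq2 called 0 members and 4 genes in all. On simulated counts the unblocked edgeR comparison found 0% of genes changed 2-fold and 12% of those changed 4-fold. Its lack of calls is thus weak evidence that the genotypes do not differ. For 0 of 37 members did the CPM ranges of the groups lie apart with the lines labelled Ephb2-KO higher (0.839% of all genes), and for 0 with them lower (1.55%). Libraries with the same replicate number deviated together from their group means, so results with that number as a blocking term follow. On simulated counts, adding this term raised the shares found to 80% of genes changed 2-fold and 96% of those changed 4-fold. Those counts gave same-numbered lines the same mean, apart from the changed genes, and the spread of the blocked fit. The gain from the block was thus built in. In the blocked fit of the real counts 0 members passed as well, where 0.0262% of all genes did (4 genes). There 29 of 37 members lay above a log2 difference of 0 and 8 below, where 53% of all genes lay above, and the median was 0.14 over the members and 0.02 over all genes. Of the 37 members 13 were higher in the line labelled Ephb2-KO of 3 of 3 pairs, where 15.6% of all genes were, and 3 were lower in 3 of 3 pairs, where 12.3% of all genes were. The medians over the members were 0.12, 0.06 and 0.17 in the pairs of replicates 1, 2 and 3, against -0.0011, 0.0023 and 0.06 over all genes. The blocked 95% interval of the fold lay inside 0.5 to 2 for 36 of the 37, the exception being Hk2 with 0.904 to 2.12, and it held 1 for 32. Without the block the median over the members was 0.12 with all libraries and 0.00535 without WT replicate 1.

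**Figure D2:**
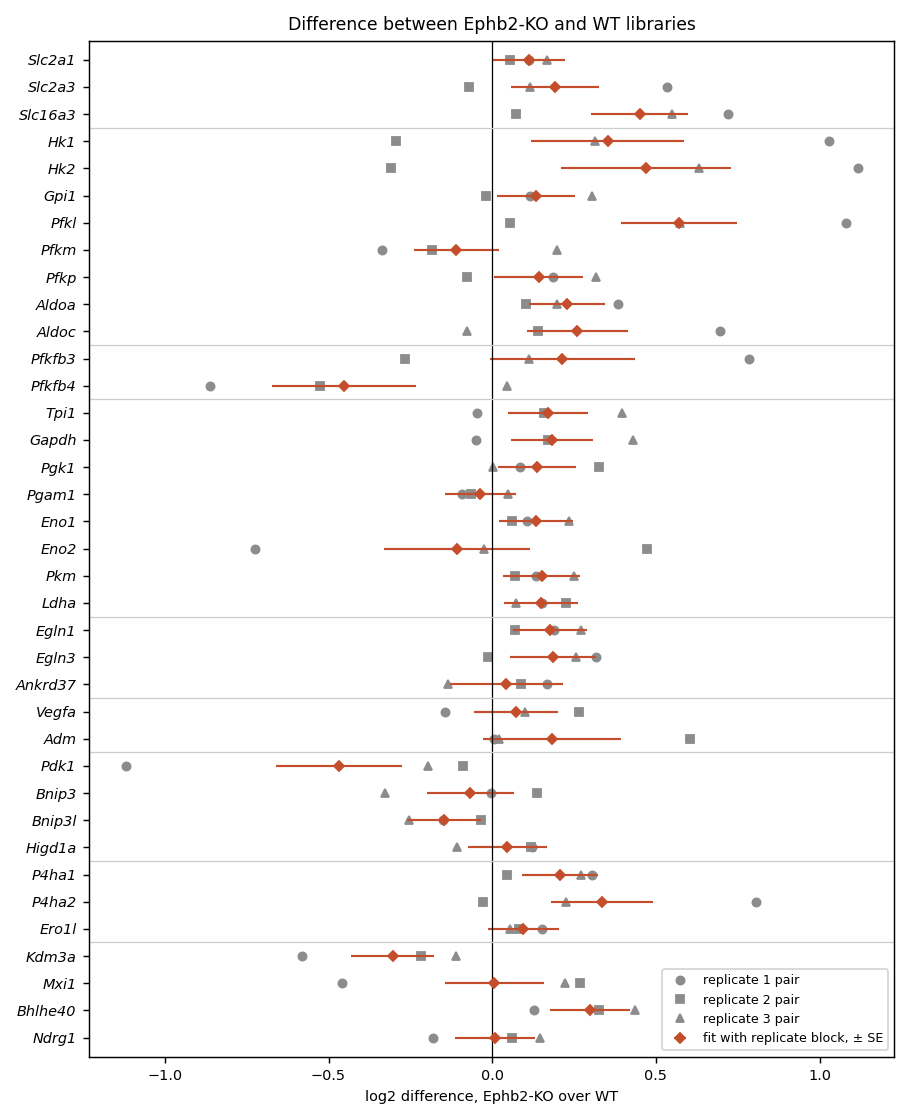
Log2 difference of lines labelled Ephb2-KO over WT lines for 37 members, by role. Grey marks are the 3 same-numbered pairs and orange diamonds the blocked fit with its standard error; most diamonds lie between 0 and 0.5, and Pdk1, Pfkfb4 and Kdm3a lie on the other side of 0.

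The members with the smallest p in the blocked fit were 3 that were higher and 2 that were lower in every pair, at an unadjusted p under 0.05 where 4.38% of all genes were higher and 2.09% lower. Pfkl, the liver-type subunit of phosphofructokinase, stood at 86.0, 79.1 and 56.1 CPM in lines labelled Ephb2-KO and 40.7, 76.1 and 37.7 CPM in WT lines. The gap was wide in replicates 1 and 3 and near nil in replicate 2, and the groups overlapped. Its blocked log2 difference was 0.57 (SE 0.18, edgeR adjusted p = 0.741), and 0.31 without the replicate 1 libraries. Slc16a3, the lactate exporter MCT4, stood at 57.9, 46.7 and 40.8 CPM in lines labelled Ephb2-KO and 35.1, 44.4 and 27.8 CPM in WT lines (blocked log2 difference 0.45, SE 0.15). Here too replicate 2 showed little difference, with a log2 value of 0.07. Bhlhe40, a circadian repressor induced by hypoxia, stood at 45.5, 63.3 and 90.4 CPM in lines labelled Ephb2-KO and 41.6, 50.5 and 66.8 CPM in WT lines (0.30, SE 0.12). Its replicate numbers kept the same order in both groups. Pdk1, the kinase that shuts pyruvate out of the citric acid cycle, stood at 85.5, 197 and 104 CPM in lines labelled Ephb2-KO and 186, 209 and 119 CPM in WT lines. Replicate 1 carried most of its blocked log2 difference of -0.47 (SE 0.19), which was -0.14 without that pair. Kdm3a, a demethylase of histone H3 lysine 9, stood at 198, 194 and 175 CPM in lines labelled Ephb2-KO and 296, 226 and 189 CPM in WT lines (-0.30, SE 0.13; -0.16 without replicate 1). None of these 5 passed over all genes: across the fits and alternatives run, their adjusted p by edgeR or DESeq2 ranged from 0.195 to 1.

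**Figure D3:**
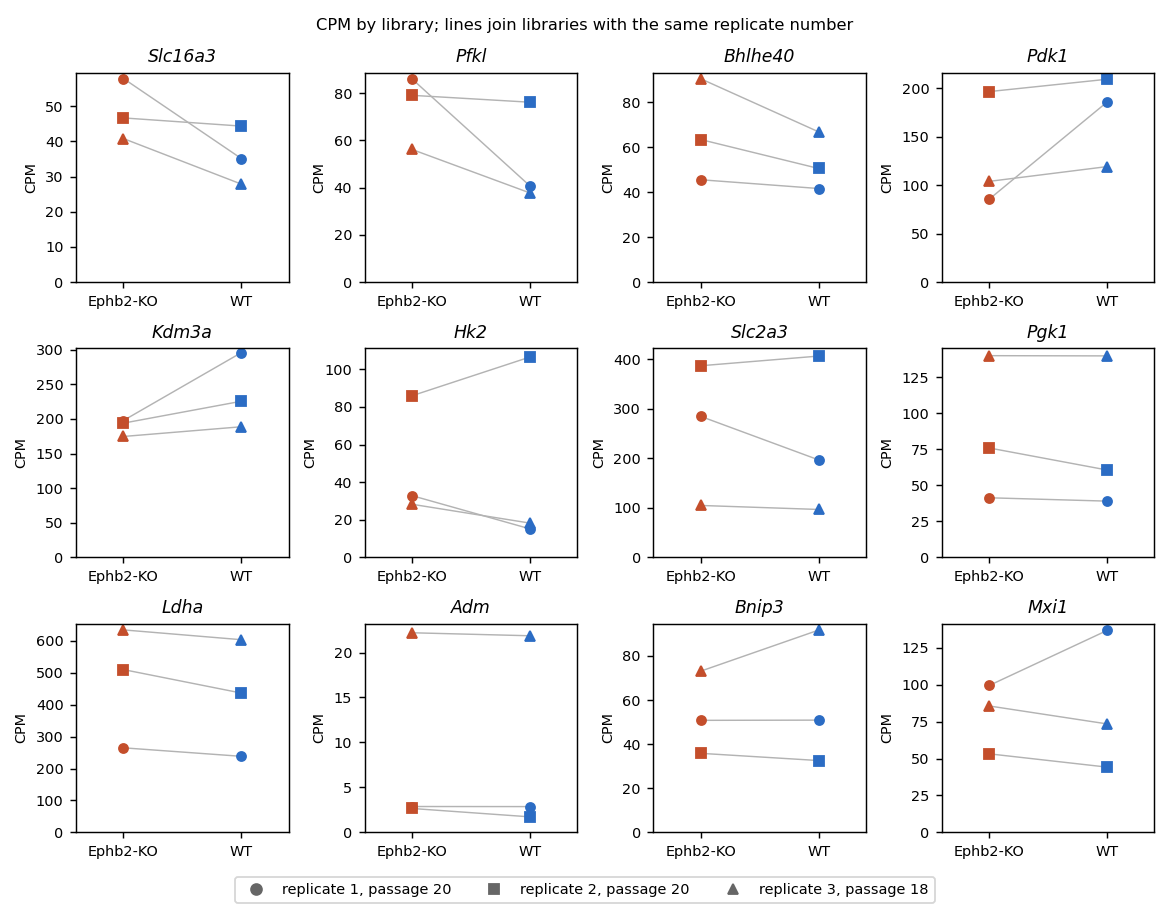
CPM of 12 members by library, with lines labelled Ephb2-KO left and WT lines right in each panel and grey lines joining libraries with the same replicate number. In the top row and for Kdm3a the joining lines slope the same way in all 3 pairs, whereas for Slc2a3, Pgk1 and Ldha the replicate numbers stand apart in both groups. For Hk2 only replicate 2 stands apart in both groups, and for Adm only replicate 3.

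Most enzymes of the pathway lay on the higher side, with none past the test. Of 16 enzymes from hexokinase to lactate dehydrogenase 0 passed, 13 lay above 0 with the block and 3 below, and 6 were higher in 3 of 3 pairs. The summed level of these 16 was 3735, 5326 and 4744 CPM in lines labelled Ephb2-KO and 3314, 5081 and 4039 CPM in WT lines. Each pair was higher in the line labelled Ephb2-KO, the groups overlapped, and replicate 1 was lowest in both. Pkm stood at 1089, 1785 and 1489 CPM in lines labelled Ephb2-KO and 992, 1702 and 1252 CPM in WT lines (blocked 0.15, SE 0.12). Aldoa stood at 404, 536 and 476 CPM in lines labelled Ephb2-KO and 309.6, 499 and 414 CPM in WT lines (0.23, SE 0.12). Eno1, the main enolase, and Ldha were also higher in 3 of 3 pairs, at 0.13 (SE 0.11) and 0.15 (SE 0.11). Eno1 stood at 397, 578 and 434 CPM in lines labelled Ephb2-KO and 369, 554 and 369 CPM in WT lines. Gapdh, which oxidises glyceraldehyde 3-phosphate, and Tpi1 (triosephosphate isomerase) were higher in 2 of 3 pairs, at 0.18 (SE 0.13) and 0.17 (SE 0.12). Gapdh stood at 270.3, 443 and 337 CPM in lines labelled Ephb2-KO and 279.8, 394 and 249.9 CPM in WT lines. Tpi1 stood at 91.7, 159.7 and 205 CPM in lines labelled Ephb2-KO and 94.7, 143 and 156 CPM in WT lines. In both genes the pair numbered 1 was the one lower in the line labelled Ephb2-KO. The hexokinase genes Hk1 and Hk2 had 0.35 (SE 0.23) and 0.47 (SE 0.26), and Gpi1, the platelet-type phosphofructokinase gene Pfkp, Aldoc and Pgk1 had 0.13 (SE 0.12), 0.14 (SE 0.13), 0.26 (SE 0.15) and 0.14 (SE 0.12). Pfkm, the muscle-type phosphofructokinase subunit, Pgam1 and Eno2, the neuronal enolase, lay below 0, at -0.11 (SE 0.13), -0.04 (SE 0.11) and -0.11 (SE 0.22).

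The transporters and the collagen group lay above 0 and the mitochondrial group mostly below it, with 0 members of each past the test. Slc2a1 stood at 279, 323 and 179.6 CPM in lines labelled Ephb2-KO and 258, 311 and 160.0 CPM in WT lines, a blocked log2 difference of 0.11 (SE 0.11) whose fold had a 95% interval of 0.912 to 1.28, and Slc2a3 had 0.19 (SE 0.13). P4ha1 and P4ha2, the catalytic subunits that hydroxylate collagen prolines, had 0.21 (SE 0.12) and 0.34 (SE 0.16), and Ero1l, which oxidises disulfides in the endoplasmic reticulum, 0.10 (SE 0.11). The summed fibroblast markers given above were also higher in the line labelled Ephb2-KO of each pair, by log2 values of 0.63, 0.32 and 0.18, and their part in these values was not tested. Of the 4 mitochondrial members Pdk1, Bnip3l and the related mitophagy receptor gene Bnip3 lay below 0, with -0.15 (SE 0.11) for Bnip3l and -0.07 (SE 0.13) for Bnip3. Higd1a, which acts on respiratory chain assembly, had 0.05 (SE 0.12). Bnip3l stood at 177, 216 and 210.4 CPM in lines labelled Ephb2-KO and 197, 221 and 251 CPM in WT lines, lower in 3 of 3 pairs. The oxygen sensors Egln1 and Egln3, the prolyl hydroxylases that HIF itself induces, had 0.18 (SE 0.11) and 0.19 (SE 0.13), and the HIF target gene Ankrd37 had 0.04 (SE 0.17). Egln1, the higher of the sensors, stood at 124, 107 and 93.9 CPM in lines labelled Ephb2-KO and 108, 102 and 77.8 CPM in WT lines, with overlapping groups. For the angiogenic factor gene Vegfa and the vasodilator peptide gene Adm the values were 0.07 (SE 0.13) and 0.18 (SE 0.21). Pfkfb4 stood at 5.67, 6.12 and 10.95 CPM in lines labelled Ephb2-KO and 10.4, 8.86 and 10.6 CPM in WT lines (-0.45, SE 0.22), whereas Pfkfb3 had 0.21 (SE 0.22). Mxi1, a MYC antagonist, and Ndrg1, a stress-induced gene, had 0.01 (SE 0.15) and 0.01 (SE 0.12).

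Where a step has several isoenzymes, the share of each was compared as a percentage of the length-scaled level of its family, which does not depend on library scaling. Of 10 shares 0 passed an exact two-sided permutation test, where 3 libraries against 3 cannot go below 0.1, so none could pass 0.05. Pfkm, the main phosphofructokinase subunit, made up 51.9%, 53.7% and 62.3% of the 3 subunits in lines labelled Ephb2-KO and 71.5%, 57.3% and 67.2% in WT lines. Its share was lower in 3 of 3 pairs, with means of 56.0% ± 5.57 in lines labelled Ephb2-KO and 65.3% ± 7.30 in WT lines (SD, n = 3 each; exact permutation p = 0.2, 1 after Benjamini-Hochberg adjustment over the 10 shares). The gap was widest in replicate 1, and the groups overlapped. Pfkfb3 made up 57.7%, 55.2% and 29.9% of Pfkfb3 and Pfkfb4 in lines labelled Ephb2-KO and 30.2%, 50.6% and 28.9% in WT lines, higher in 3 of 3 pairs (exact permutation p = 0.3). Hk2, the inducible hexokinase, followed the replicate number and not the label, at 27.2%, 64.1% and 31.8% of Hk1 and Hk2 in lines labelled Ephb2-KO and 26.0%, 64.3% and 27.2% in WT lines. Replicate 2 was the only number at which Hk2 exceeded Hk1 per length. Eno1 made up between 91.2% and 98.9% of the enolase level and Aldoa between 82.5% and 94.2% of the aldolase level in every library.

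**Figure D4:**
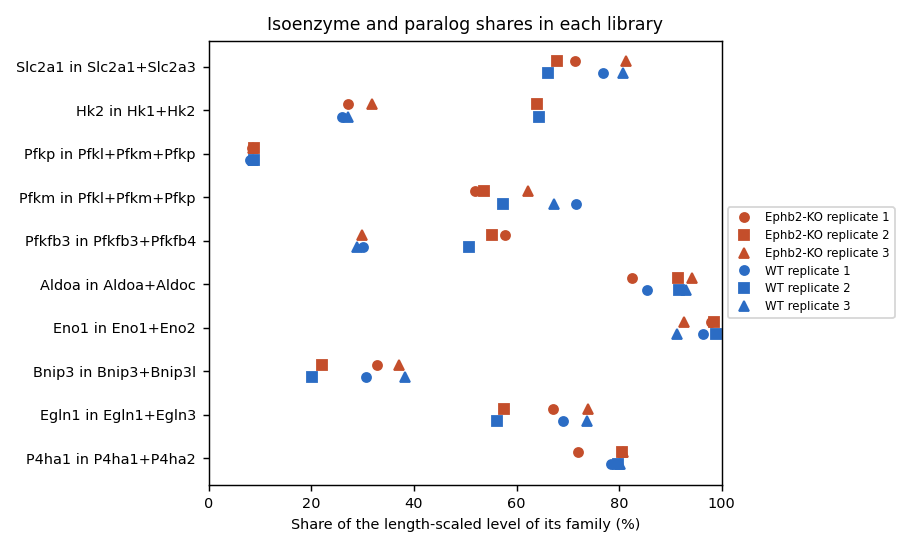
Share of 1 paralog in the length-scaled level of its family, in percent, for each library, with lines labelled Ephb2-KO in orange above WT lines in blue and the shape giving the replicate number. Squares (replicate 2) stand near 64% for Hk2 in both groups, against 26.0% to 31.8% in the other 4 libraries.

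The lines at passage 18 differed from those at passage 20 in 11 members, 7 of them higher and 4 lower, in the edgeR quasi-likelihood test with genotype as a covariate. That was 29.7% of the members tested, where 25.8% of all genes were called, with 15.4% of all genes higher and 10.4% lower. The members' share of calls was thus near that of all genes in this fit. Called higher were Adm, Eno2, Pgk1, Bnip3, Vegfa, P4ha1 and Bhlhe40, and called lower were Slc2a3, Slc2a1, Egln3 and Aldoc. Bnip3l, P4ha2 and Ero1l, which share a role with called members, did not pass. In comparisons with each passage 20 replicate number alone, added after the data were seen and made with the same passage 18 lines, 14 of 37 members (37.8%) were called in the same direction in both, where 34.3% of all genes were. Over replicate 1 alone 21 members were called (43.4% of all genes), and over replicate 2 alone 26 (56.1% of all genes). Without the replicate 3 line labelled Ephb2-KO the count was 1 and without WT replicate 3 it was 1, Adm in each case, and the calls over all genes fell to 325 and 284, against 3935 with all lines. The 12 fibroblast markers made up 1.86% and 1.64% of counts at passage 18 and between 0.330% and 0.509% at passage 20, and the 9 germ cell markers 0.133% and 0.158% at passage 18 and between 0.254% and 0.324% at passage 20; their part in these differences was not tested. At passage 18, 10 of the 12 fibroblast markers were called higher and 0 lower, and 0 of the 9 germ cell markers higher and 5 lower. Of 5 Sertoli cell markers tested 0 were called higher and 1 lower, of 2 macrophage markers 0, and of 7 mitochondrially encoded genes 0 higher and 1 lower. In the interaction test of genotype with passage, edgeR called 0 of 37 members at an adjusted p under 0.05, where 0% of all genes were called. There were 0 members at an unadjusted p under 0.05, where 0.131% of all genes were, and DESeq2 called 0.

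Adm, which encodes the peptide adrenomedullin, had the widest gap. It stood at 22.2 CPM in the line labelled Ephb2-KO and 21.9 CPM in the WT line at passage 18, and at passage 20 at 2.88 and 2.66 CPM in lines labelled Ephb2-KO and 2.87 and 1.72 CPM in WT lines. The passages did not overlap, and the fitted fold was 8.71 with a 95% interval of 5.46 to 13.9 (edgeR adjusted p = 0.000611). Eno2 stood at 30.5 and 31.0 CPM at passage 18 and at 7.22 and 7.47 CPM in lines labelled Ephb2-KO and 11.97 and 5.37 CPM in WT lines at passage 20 (log2 difference 1.94, SE 0.32, edgeR adjusted p = 0.00605). Pgk1, the phosphoglycerate kinase that makes the first ATP of the pathway, stood at 140.0 and 139.8 CPM at passage 18. At passage 20 it stood at 41.3 and 75.9 CPM in lines labelled Ephb2-KO and 38.9 and 60.5 CPM in WT lines (1.38, SE 0.27, edgeR adjusted p = 0.0109). Both of its passage 18 values were well over every passage 20 value. Bnip3 stood at 73.1 and 91.7 CPM at passage 18 and at 50.8 and 35.8 CPM in lines labelled Ephb2-KO and 50.9 and 32.6 CPM in WT lines at passage 20 (0.95, SE 0.23). Vegfa stood at 80.2 and 74.8 CPM at passage 18 and at 41.9 and 54.5 CPM in lines labelled Ephb2-KO and 46.3 and 45.3 CPM in WT lines at passage 20 (0.72, SE 0.16). P4ha1 stood at 252 and 209 CPM at passage 18 and at 140.3 and 169 CPM in lines labelled Ephb2-KO and 114 and 164 CPM in WT lines at passage 20 (0.65, SE 0.18). These 3, like Bhlhe40 (0.64, SE 0.18), did not overlap between the passages and were called higher. With 2 lines against 4, such a gap is not a test. The share of all genes with such a gap is not given here, so none is read as particular to the members. The ranges also lay apart for Ldha, which was not called, at 634 and 603 CPM at passage 18 and 238 to 510 CPM at passage 20. In the other direction Slc2a3 stood at 105 and 96.5 CPM at passage 18. It stood at 285 and 387 CPM in lines labelled Ephb2-KO and 197 and 406 CPM in WT lines at passage 20 (-1.66, SE 0.31, edgeR adjusted p = 0.00943). Egln3 was lower as well, at 25.2 and 21.1 CPM at passage 18 against 45.8 and 59.8 CPM in lines labelled Ephb2-KO and 36.7 and 60.3 CPM in WT lines at passage 20 (-1.13, SE 0.25, edgeR adjusted p = 0.0169). Aldoc, the brain-type aldolase, and Slc2a1 were the other members called lower, at -0.94 (SE 0.26) and -0.79 (SE 0.16). Aldoc stood at 34.5 and 36.4 CPM at passage 18 and at 101 and 59.0 CPM in lines labelled Ephb2-KO and 62.6 and 53.5 CPM in WT lines at passage 20. Ldha (0.78, SE 0.31, edgeR adjusted p = 0.107) and Hk2 (-1.39, SE 0.78, edgeR adjusted p = 0.233) did not pass.

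**Figure D5:**
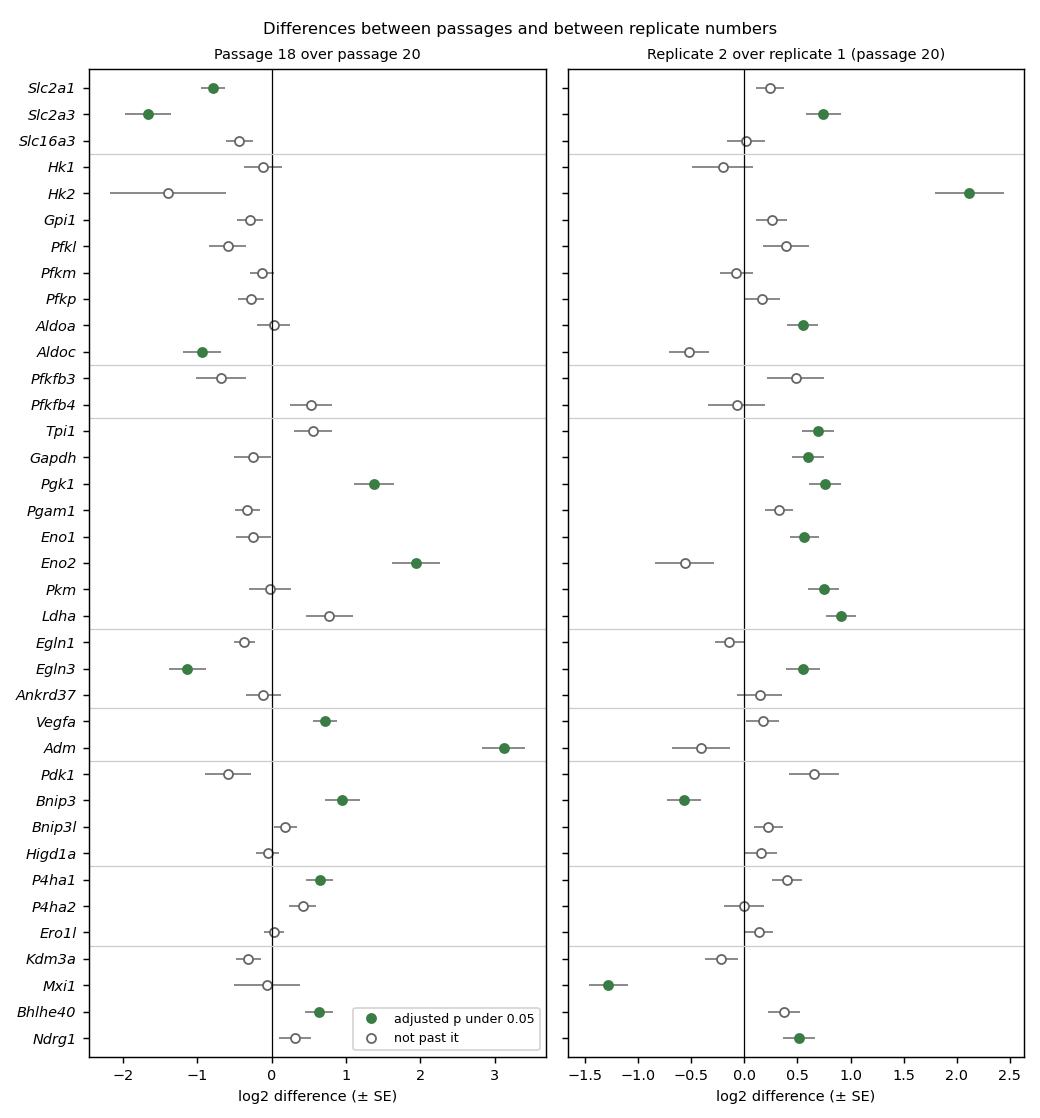
Log2 difference with its standard error for 37 members, for passage 18 over passage 20 (left) and for replicate 2 over replicate 1 within passage 20 (right), by role; the 2 panels have different scales. Filled marks passed an adjusted p under 0.05; Adm is the farthest to the right in the left panel, and in the right panel Hk2 is, with 6 of the 8 members of lower glycolysis filled.

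Within passage 20, both lines numbered 2 differed from both lines numbered 1 in most genes of the lower part of glycolysis. This comparison was added after the data were seen and fitted with genotype and replicate number as terms. It called 13 of 37 members, 35.1%, where 16.5% of all genes were called: 11 were higher in replicate 2, where 8.14% of all genes were, and 2 were lower, where 8.35% of all genes were. Of the 8 genes of the lower pathway from triosephosphate isomerase to lactate dehydrogenase, 6 rose and 0 fell. Ldha stood at 510 CPM in the replicate 2 line labelled Ephb2-KO and 436 CPM in WT replicate 2, against 265 and 238 CPM in replicate 1 (log2 difference 0.91, SE 0.14, edgeR adjusted p = 0.00229). Pkm, Pgk1, Tpi1, Gapdh and Eno1 rose by log2 values of 0.75, 0.76, 0.70, 0.60 and 0.57. The labels do not say what the replicate numbers stand for, and the rise was seen in both groups. Hk2 showed the widest difference, at 86.0 CPM in the line labelled Ephb2-KO and 107 CPM in the WT line of replicate 2, against 32.8 and 15.1 CPM in replicate 1 (2.12, SE 0.32, edgeR adjusted p = 0.00762). Slc2a3, Aldoa, Egln3 and Ndrg1 were the other members called higher, at 0.74 (SE 0.16), 0.55 (SE 0.14), 0.55 (SE 0.16) and 0.52 (SE 0.15). Ndrg1 stood in replicate 2 at 77.7 CPM in the line labelled Ephb2-KO and 74.4 CPM in the WT line, against 49.8 and 56.5 CPM in those of replicate 1. Mxi1 fell, to 53.2 and 44.2 CPM in replicate 2 against 99.6 and 137 CPM in replicate 1 (-1.28, SE 0.19, edgeR adjusted p = 0.00185), and Bnip3 fell with -0.57 (SE 0.16). Leaving out WT replicate 2 left 6 members called, with 1401 calls over all genes against 2516 with all lines. Leaving out another of the 4 passage 20 lines left 12 or 13, not all of them the same members. Hk2, Tpi1, Pgk1, Pkm, Ldha and Mxi1 passed in 4 of 4 such fits and Eno1 in 3, whereas Slc2a3, Aldoa, Egln3 and Bnip3 passed in 2 and Gapdh and Ndrg1 in 1. The fibroblast markers made up 0.506% and 0.406% of counts in replicate 2 and 0.509% and 0.330% in replicate 1, and the ranges overlapped, with 2 of the 12 called higher and 3 lower. Other marker lists moved with the replicate number. The 7 mitochondrially encoded genes tested were all called higher in replicate 2, with a median log2 difference of 0.64. Of 9 germ cell markers 2 were called higher and 1 lower, and Etv5, a transcription factor of stem cell self-renewal, stood in replicate 2 at 218 CPM in the line labelled Ephb2-KO and 252 CPM in the WT line, against 23.3 and 24.7 CPM in those of replicate 1. Of 5 Sertoli cell markers tested 2 were called higher and 1 lower. Of 2 macrophage markers tested 1 was called higher, Cd68, at 15.9 CPM in the line labelled Ephb2-KO and 20.1 CPM in the WT line of replicate 2, against 6.14 and 7.07 CPM in replicate 1. The part of these in the members' differences was not tested.

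Genes of the same pathways outside the 38 were read from lists drawn up by name. Between genotypes 0 of 9 HIF subunits and regulators, 0 of 18 further glycolysis and pyruvate genes, 0 of 7 pentose phosphate genes and 0 of 26 further hypoxia targets passed, with or without the block. The blocked medians of these 4 lists were -0.0085, -0.00697, 0.083 and 0.10. Hif1a, the oxygen-regulated subunit, stood at 110.2, 145 and 203 CPM in lines labelled Ephb2-KO and 119.8, 143 and 190.0 CPM in WT lines. Its blocked log2 difference was -0.00144 (SE 0.11). The 2 smallest blocked p-values of each list were those of Loxl2 (0.54, SE 0.14) and Plod1 (0.47, SE 0.13), enzymes that modify collagen lysines, Pdk4 (0.30, SE 0.16), Bpgm (-0.32, SE 0.17), Tkt (0.25, SE 0.13), G6pdx (0.22, SE 0.14), Hif3a (0.36, SE 0.26) and Vhl (-0.08, SE 0.12). Loxl2 and Plod1 were higher in 3 of 3 pairs, as the summed fibroblast markers were.

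At passage 18, where 15.4% of all genes were called higher and 10.4% lower, the list of further hypoxia targets had 7 genes called higher and 4 lower of 26. Higher were the matrix enzyme genes Lox, Loxl2, Plod2 and Plod1, at log2 differences of 2.03, 1.26, 1.14 and 0.68, and Vldlr, Kdm4c and Insig2, at 2.20, 1.15 and 0.98. Among those lower were Rora, Ak4 and Tfrc, at -0.93, -0.78 and -0.61. Lox, a lysyl oxidase of the matrix, stood at 1077 and 1027 CPM at passage 18 and between 166 and 359 CPM at passage 20. Of 18 further glycolysis and pyruvate genes 5 were called higher and 2 lower. Those higher were Pdk4, Mpc1, Ldhb, Pdp1 and Bsg, by log2 values of 2.83, 1.83, 1.53, 1.45 and 0.81, and those lower were Slc16a1 and Pdk3, at -0.90 and -0.75. Pdk4, a pyruvate dehydrogenase kinase induced by fasting, stood at 64.3 CPM in the line labelled Ephb2-KO and 54.0 CPM in the WT line at passage 18, against 3.88 to 11.95 CPM at passage 20 (edgeR adjusted p = 0.00379). Of 7 pentose phosphate genes 2 were called higher (Rpe by 1.12 and Tkt by 1.06). Of 9 HIF subunits and regulators Hif1a was called higher (0.60, SE 0.16). Hif1an, which encodes the asparaginyl hydroxylase that inhibits HIF, was called lower (-1.04, SE 0.18). In replicate 2 over replicate 1, 7 of the 26 further hypoxia targets rose and 1 fell, where 8.14% of all genes rose and 8.35% fell. Angptl4, a secreted lipase inhibitor, stood in replicate 2 at 113 CPM in the line labelled Ephb2-KO and 88.7 CPM in the WT line, against 12.4 and 11.999 CPM in those of replicate 1.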

How the data were processed

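Polyadenylated RNA of 6 lines was sequenced with a strand-keeping kit, per the labels' protocols. The deposited values are raw counts of reads per gene name. Per the file headers the authors made them with featureCounts 1.4.6-p4 over GENCODE vM3 exons with strand setting 2, from 1 merged alignment per library, with no option set for pairs, multi-mapping or overlaps. STAR, FastQC and GRCm38.p3 are named in the submitters' processing notes; STAR's settings were not stated there. Antisense reads are kept apart by strand. Every row named a gene. The number of columns left out as belonging to other samples was 0.

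The tests used edgeR 4.0.16 under R 4.3.3 (filterByExpr, TMM scaling, glmQLFit with robust estimation, glmQLFTest, Benjamini-Hochberg adjustment over 15263 genes, threshold 0.05). The genotype comparison had no covariate, passage 18 over passage 20 had genotype as a covariate, and the interaction had both. DESeq2 1.42.0, other scalings and filters, the replicate block and leaving out each library were alternatives. The SE is the log2 difference divided by the square root of F. CPM uses TMM-scaled library sizes, CPM per kb the summed exon length in the files, and differences within pairs log2 CPM with a prior count of 2. Same-numbered libraries correlated at 0.596, 0.736 and 0.850 in their deviations from group means over genes, against at most 0.0790 with another number, so by the bound of 0.1 the numbers pair the libraries; the pairing comes from the sample titles and this check. Every pair of libraries differed by more than sampling noise (chi-square over degrees of freedom 21.8 to 314). The labels describe separate subclones but no separate parent cultures, so p-values measure the spread between these lines. The scripts were tested on simulated counts with 100 genes changed 2-fold and 100 changed 4-fold. The genotype comparison found 0% and 12% of these without the block, and 80% and 96% with it, on counts simulated with a shared mean for same-numbered lines. The passage comparison found 79% and 98%, on counts simulated without the difference between replicates 1 and 2 that the real lines showed. These shares may thus be too high for the real passage comparison. False calls were 0 of 12, 14 of 190 and 15 of 192 in the same order. The members, lists, rule for named genes, shares and alternatives were chosen with earlier results of these data known. By that rule all members are named. Values of the lines compared go to members called at passage 18 over passage 20 or in replicate 2 over replicate 1. Values in every library go to those higher or lower in 3 of 3 pairs at a blocked unadjusted p under 0.05, and to the highest member of each role. Members called only at passage 18 over replicate 1 or replicate 2 alone are not all given by library. Between genotypes, with none called, list genes are named as the 2 of smallest blocked p. All but 1 of those called at passage 18 over passage 20 are named. Those called in replicate 2 over replicate 1 are not all named. The values of 1 list gene are not reported here. Figures were drawn with matplotlib 3.10.9.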

Additional observations from a re-analysis of the deposited data

Results flagged for a closer look

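Among the 4 passage 20 libraries, Car9 stood at 0.405 CPM in the replicate 2 line labelled Ephb2-KO, apart from the others at 0 to 0.0282 CPM: the gap to the nearest library was 0.930 of the whole range, above Dixon's 95% critical value for 4 samples. Those levels rest on 9 counts against 0 or 1. It was the only 1 of the 38 members to stand out in this way, where chance flags about 1 in 20 groups of 4.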

How the results depend on the processing

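No member passed between genotypes in any of the 17 alternatives run. For those without the block this is weak evidence, since the unblocked edgeR comparison found 12% of simulated 4-fold changes. With the replicate block 0 members passed and the median over the members was 0.14, and the block changed no call of a member. Without the block that median was 0.12 and ran from 0.00535 (without WT replicate 1) to 0.22 (without WT replicate 2) when 1 library was left out. Of the 37 members 24 changed the sign of their log2 difference in at least 1 alternative, none of them past the threshold; other scalings, tests and filters without the block changed 0 signs. The count of 11 members called at passage 18 became 16 of 38 without the low-count filter, where 5264 of 24749 genes were called. It was 10 of 36 with 5 CPM in at least 3 libraries, where 3573 of 11282 genes were called. With other scalings and with DESeq2 it stayed at 11. It ran from 1 to 11 when 1 library was left out, and was 21 over the replicate 1 lines alone and 26 over the replicate 2 lines alone. In these last 2 comparisons, added after the data were seen, Pkm had 0.40 over replicate 1 and -0.36 over replicate 2. Mxi1 had -0.55 over replicate 1 and 0.70 over replicate 2. Each of these was called, against -0.03 for Pkm and -0.06 for Mxi1 over all passage 20 lines. For both genes the passage 18 levels lay between those of replicates 1 and 2. Why the replicate numbers differ was not tested. The 13 members called in replicate 2 over replicate 1 ran from 6 to 13. The isoenzyme shares had 0 past the test in all 7 alternatives, but none could pass, since the exact permutation p cannot go below 0.1 with so few libraries. With 3 lines a group and lines that differ by replicate number, differences within the blocked intervals given above were not excluded.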
